A study of Homo sapiens with 8 samples.

Results

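The microRNA hsa-miR-31-5p was followed through 8 small RNA libraries of HEK293 cells, an established human embryonic kidney line. It was picked by its name, 1 of the 2867 entries in the count table, and was one of 482 known microRNA entries counted above 0 in all 8 libraries. The other 481 of these were compared with it, to see which moved the same way or the opposite way from library to library within each group. Cells of the first group (ASO, 4 libraries) received 100 nM of an antisense oligonucleotide, a synthetic strand designed to bind one RNA by base pairing. The library names of both groups begin with miR-31, so they do not by themselves state the target of the ASO. Cells of the second group (control, 4 libraries) received no ASO, and both groups were harvested at 48 h. An unrelated ASO was not among the groups, and the labels do not say whether the control cells were mock-transfected or whether the libraries came from separate cultures. The p-values below are therefore set by library-to-library spread that may be technical.

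MicroRNAs are cut from hairpin precursors by Drosha in the nucleus and Dicer in the cytoplasm, and one strand is loaded into an Argonaute protein, where its seed near the 5′ end pairs with target messenger RNAs. In human cancer miR-31 is known for repressing genes of cell movement and adhesion such as RHOA, RDX and ITGA5, and its locus at 9p21 is often deleted in tumours. In skin it is induced by NF-kB and promotes keratinocyte growth.

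The MIR31 hairpin lies on chromosome 9, from 21512115 to 21512185 on the minus strand of GRCh38.p14, inside the long noncoding RNA gene MIR31HG (21454268 to 21559798). There were 0 other RefSeq hairpins within 10 kb of it. The hairpin is shown because it is the precursor of miR-31-5p, with the mature 5p strand in capitals, and below it the mature strand with its seed, bases 2 to 8, in capitals. Both are RefSeq sequences of GRCh38.p14, 5′ to 3′.
MIR31 hairpin: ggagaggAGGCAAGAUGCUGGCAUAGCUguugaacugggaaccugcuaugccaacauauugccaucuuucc
miR-31-5p: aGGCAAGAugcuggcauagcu

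No other known entry in the table carried this seed, among the 796 of 903 whose names matched a RefSeq mature sequence. The mature strands below, also from RefSeq GRCh38.p14 with bases 2 to 8 in capitals, belong to microRNAs that the results turn on. The first set moved with miR-31-5p in both groups, and it includes 4 members of one seed family.
miR-30c-5p: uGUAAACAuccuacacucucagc
miR-484: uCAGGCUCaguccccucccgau
miR-181b-5p: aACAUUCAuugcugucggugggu
let-7b-5p: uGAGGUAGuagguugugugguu
miR-16-5p: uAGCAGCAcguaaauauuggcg
miR-194-5p: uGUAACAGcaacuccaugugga
miR-17-5p: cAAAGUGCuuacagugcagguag
miR-20a-5p: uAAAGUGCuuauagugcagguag
miR-20b-5p: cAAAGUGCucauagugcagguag
miR-93-5p: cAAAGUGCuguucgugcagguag

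The second set moved against miR-31-5p in both groups. In it miR-192-5p missed the limit of −0.9 used below for r in ASO libraries (−0.794, against −0.971 in controls), and it is shown because it shares its seed with miR-215-5p.
miR-129-5p: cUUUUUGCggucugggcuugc
miR-330-3p: gCAAAGCAcacggccugcagaga
miR-378a-3p: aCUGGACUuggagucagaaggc
miR-215-5p: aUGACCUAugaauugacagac
miR-192-5p: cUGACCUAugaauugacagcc

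The level of miR-31-5p varied far more between libraries of one group than between the groups. Levels are CPM, counts scaled to a common library size, over the tested entries after TMM scaling, which evens out library composition. ASO libraries 1 to 4 held 776, 916, 1018 and 637 CPM, and controls 1 to 4 held 350, 657, 880 and 1056 CPM. Control library 4 was the highest of all 8 and control library 1 the lowest, so the ASO values lay wholly inside the range of the controls. Among known microRNAs it ranked 91st, 84th, 83rd and 95th in abundance in ASO libraries 1 to 4, and 113th, 95th, 86th and 79th in controls 1 to 4.

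**Figure D1:**
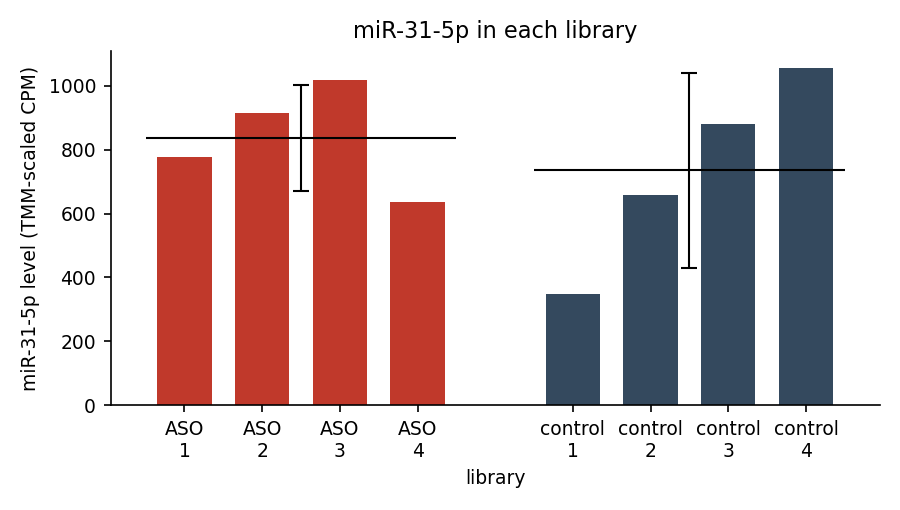
Level of miR-31-5p in each library, in TMM-scaled CPM on a linear axis from 0, with 1 bar per library. Horizontal lines mark the group means and vertical bars 1 SD (837 ± 166 CPM with ASO, 736 ± 305 CPM in controls, n = 4 each), and the control bars reach both above and below the ASO bars.

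In descending order the libraries were control 4, ASO 3, ASO 2, control 3, ASO 1, control 2, ASO 4 and control 1. Most neighbours in this order differed by little. Control 4 was 1.04-fold above ASO 3 (95% interval from counting error 1.01 to 1.06), and ASO 2 was 1.04-fold above control 3 (1.01 to 1.07). Control 2 and ASO 4 could not be ordered, with a ratio of 1.03 (0.996 to 1.07) that turned to 0.983 when library totals alone were used. The one wide gap was between ASO 4 and control 1, at 1.82-fold (1.75 to 1.90). Counts of miR-31-5p ran from 3525 in control library 1 to 11969 in control library 4. The intervals hold counting error alone, and PCR duplicates make the true error larger.

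Control libraries spread more widely than ASO libraries, a difference that rested on control library 1. The highest ASO library held 1.60 times the lowest (95% interval 1.55 to 1.65), while the highest control held 3.02 times the lowest (2.91 to 3.14). The coefficient of variation was 19.9% with ASO and 41.4% in controls (n = 4 each), and the SD of the log2 level was 0.30 with ASO and 0.70 in controls. Pooled within groups the SD was 0.54, against 0.016 from counting error at its mean count. The pooled SD was 0.32 without control library 1. Without that library the controls ran from 657 to 1056 CPM, close to the 637 to 1018 CPM of the ASO libraries.

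Few microRNAs of like abundance varied as much. Among the 40 known entries whose mean level lay within 2-fold of that of miR-31-5p, it ranked the second by pooled SD and also the second within ASO libraries and within controls. The other 39 had a median SD of 0.13 and a range of 0.043 to 0.56. The highest was miR-361-3p (0.56), and after miR-31-5p came miR-107 (0.39), miR-23a-3p (0.32), miR-129-5p (0.32) and miR-16-5p (0.32). Of the 309 entries with a mean count of at least 100, 4 had a higher SD than miR-31-5p and the median was 0.17. Without control library 1 it ranked the third of the 40, with 0.32 against a median of 0.11 for the others.

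**Figure D2:**
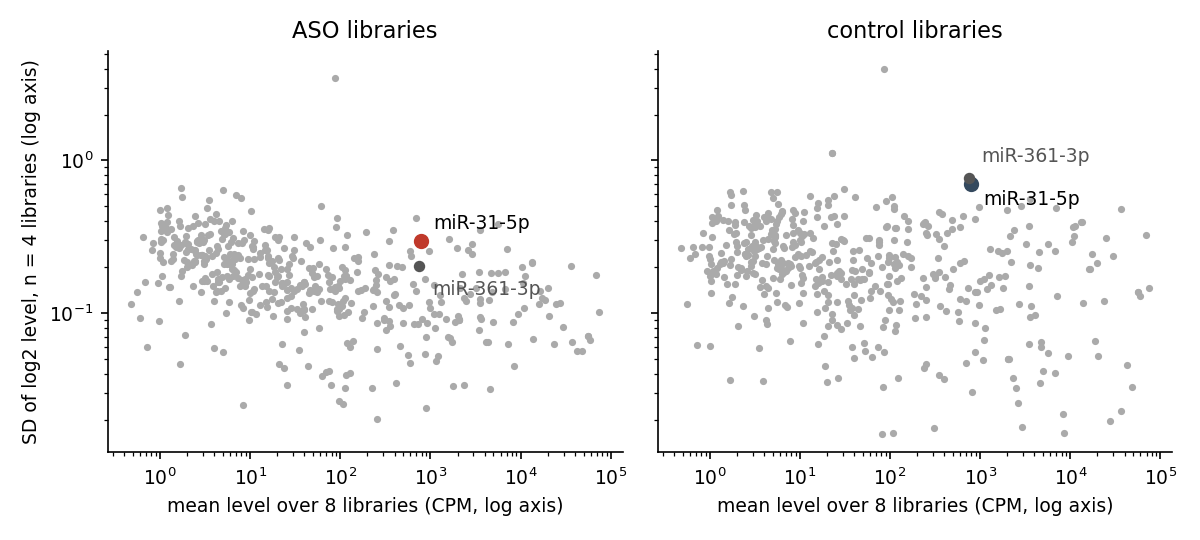
SD of the log2 level over the 4 ASO libraries (left) and the 4 control libraries (right) against mean level in CPM, both axes logarithmic, with 1 point for each of 482 known microRNAs. The large point is miR-31-5p (SD 0.30 with ASO, 0.70 in controls), which sits near the upper edge at its level, and the smaller dark point is miR-361-3p.

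miR-361-3p, next below it in mean level, did not share its order of libraries. It stood at 413, 557, 501 and 422 CPM in ASO libraries 1 to 4, and at 1495, 1214, 995 and 444 CPM in controls 1 to 4. In controls it was therefore highest where miR-31-5p was lowest. Pearson's r between their log2 levels was 0.763 over the 4 ASO libraries and −0.821 over the 4 controls. The other entries next in level varied less, with pooled SDs of 0.072 for miR-126-3p, 0.068 for miR-16-3p, 0.12 for miR-1303 and 0.10 for miR-363-3p.

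Between the groups miR-31-5p showed no difference beyond this spread. In edgeR's quasi-likelihood test its log2 fold change came to 0.19, with an SE of 0.33, a 95% interval of −0.57 to 0.95 and an adjusted p of 0.851. An exact two-sided permutation test of the mean log2 difference, 0.28, gave p = 0.571, where the 70 arrangements of the libraries allow a smallest p of 0.0286. Without control library 1 the direction turned, with a log2 fold change of −0.04. In this test 1 of 745 entries passed the threshold of 0.05, or 0.134%, and that entry was miR-503-5p of the miR-15/16 family (log2 fold change −0.91, adjusted p = 0.00854, or 0.0600 without control library 2). The count at an unadjusted p under 0.05 was 78, and DESeq2 called 9 entries higher and 14 lower. The edgeR count was 0 without control 2, 2 without ASO 1, without control 1 and without control 3, 3 without ASO 4, and 5 without control 4.

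Likeness to miR-31-5p was measured as Pearson's r of log2(CPM + 1) levels over the 4 libraries of each group. With n = 4 an r close to 1 rests on few points, and all entries share the same libraries and scaling, so these values are descriptions with no test. An r of at least 0.9 was reached by 55 of the 481 entries in ASO libraries (11.4%), by 121 in controls (25.2%) and by 36 in both groups (7.48%). An r of −0.9 or lower was reached by 35 in ASO libraries (7.28%), by 81 in controls (16.8%) and by 15 in both (3.12%). The 36 are called followers here and the 15 opposite microRNAs. Without ASO library 1 there were 61 followers and 26 opposite microRNAs, and opposite microRNAs numbered 29, 25 and 24 without ASO library 2, 3 or 4. A further 3 passed the limit with one sign in one group and the other sign in the other group. Over the 8 libraries with group means removed, r was above 0 for 268 of the 481 and its median was 0.143.

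**Figure D3:**
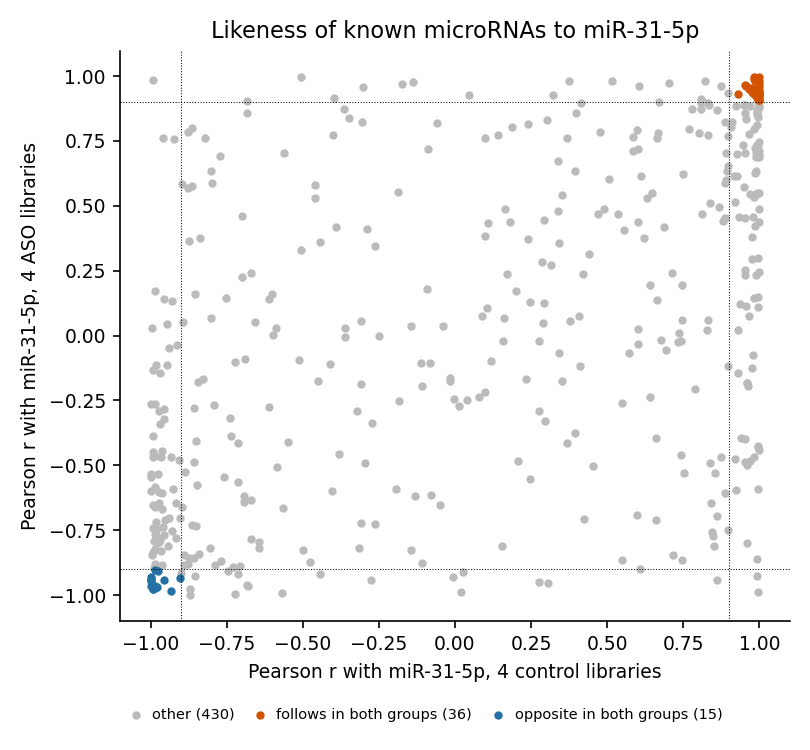
Pearson's r with miR-31-5p over the 4 ASO libraries (vertical axis) and over the 4 control libraries (horizontal axis) for 481 known microRNAs, with dotted lines at 0.9 and −0.9. The 36 followers fill the upper right corner and the 15 opposite microRNAs the lower left, while many other points lie along the left and right edges, where r is large in size in controls and not with ASO.

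The limit cuts through a continuous range. Just inside it among followers were miR-194-5p (r 0.916 with ASO, 0.993 in controls), miR-708-5p (0.914 and 0.999) and miR-345-5p (0.907 and 0.999). Just outside were let-7d-5p (0.899 and 0.997), miR-203a-3p (0.933 and 0.898) and miR-30b-5p (0.886 and 0.969). On the other side miR-576-3p (−0.905 and −0.984) was just inside and miR-548au-3p (−0.894 and −0.988) just outside. Control library 1 carries part of these values, and in the other 3 controls 29 of the 36 followers kept an r of at least 0.9 and 13 of the 15 opposite microRNAs an r of −0.9 or lower. Both sets were picked by r over controls that include these 3, so the counts are no separate support.

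The closest follower was miR-30c-5p, of a family that represses genes of the epithelial-mesenchymal transition. It held 11906, 12777, 13647 and 10586 CPM in ASO libraries 1 to 4, and 6281, 8673, 10344 and 11052 CPM in controls 1 to 4. Within each group its libraries stood in exactly the order of miR-31-5p (r 0.998 with ASO and 0.999 in controls). Across the groups the orders differed, since ASO library 4 held more miR-30c-5p than control library 3 and less miR-31-5p.

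The size of a shared movement was taken from a slope, the log2 change of an entry per log2 change of miR-31-5p within groups. A slope of 1 means an equal fold and a slope of 0.5 its square root. miR-30c-5p had a slope of 0.52 (SE 0.02), so its swings were smaller than those of miR-31-5p. The slopes of the 36 followers ran from 0.19 to 1.50 with a median of 0.53, and 0.53 also without control library 1. Since the followers were picked on the same levels, their slopes are given as sizes only.

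miR-484, which is made without Drosha cleavage, stood next in likeness. It had 2193, 2485, 2609 and 2105 CPM in ASO libraries 1 to 4 and 1390, 1819, 2088 and 2322 CPM in controls 1 to 4, with a slope of 0.46 (SE 0.03). miR-181b-5p, of a family that tunes lymphocyte and NF-kB signalling, had 4904, 5187, 5347 and 4417 CPM in ASO libraries and 3115, 4045, 4351 and 4623 CPM in controls, with a slope of 0.36 (SE 0.03). Both repeated the order of miR-31-5p in each group. miR-16-5p, which represses cyclins and BCL2, had 948, 1139, 1124 and 907 CPM in ASO libraries and 479, 681, 821 and 928 CPM in controls, with a slope of 0.59 (SE 0.04). It shared the order in controls, and among ASO libraries it swapped the places of libraries 2 and 3.

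let-7b-5p, whose family restrains growth genes such as HMGA2, moved least of the 10 closest, between 1822 and 2088 CPM across ASO libraries and between 1466 and 1934 CPM across controls (slope 0.26, SE 0.03). miR-577 moved most, over 106 to 137 CPM with ASO and 48.5 to 120 CPM in controls (slope 0.80, SE 0.06). The other 4 of the 10 were miR-374b-5p (slope 0.71), miR-652-3p (0.48), miR-324-3p (0.43) and miR-505-3p (0.40). In all 10, control library 1 was the lowest control, and ASO library 4 the lowest ASO library.

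**Figure D4:**
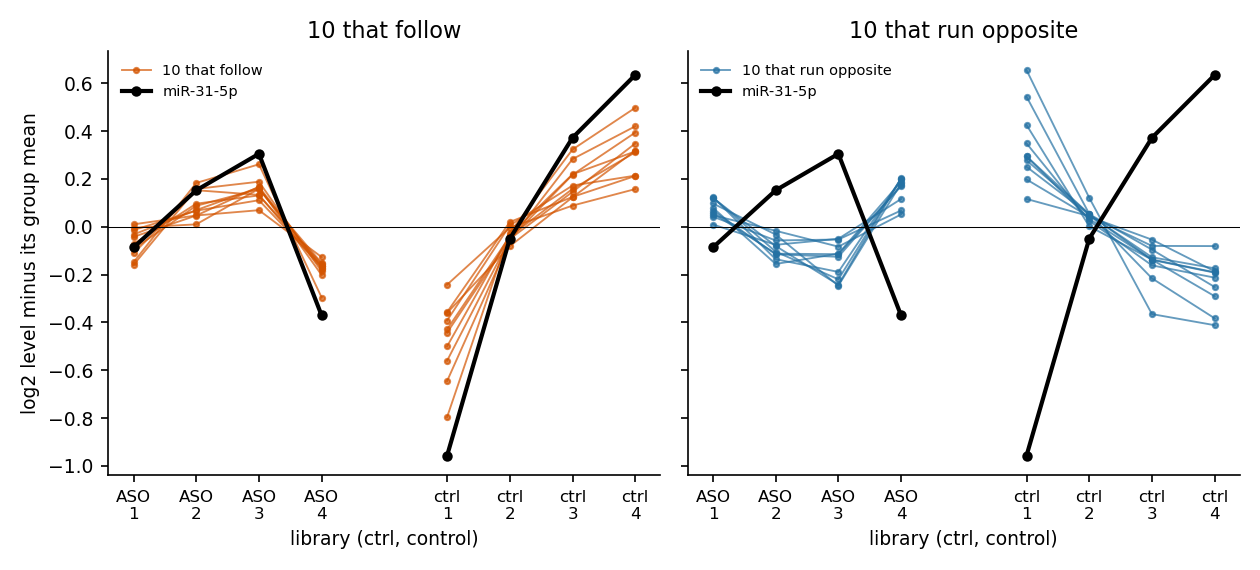
Log2 level minus its group mean in each library for miR-31-5p (black), the 10 closest followers (left panel) and the 10 closest opposite microRNAs (right panel). Lines join the values of one microRNA and imply no order of libraries. Control library 1 lies at −0.96 for miR-31-5p, and the followers there are all below 0 while the opposite microRNAs are all above 0.

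Among the opposite microRNAs miR-129-5p, a brain-enriched microRNA, was the closest mirror. It stood at 441, 383, 342 and 466 CPM in ASO libraries 1 to 4 and at 796, 567, 470 and 418 CPM in controls 1 to 4, the exact reverse of the miR-31-5p order in both groups (slope −0.59, SE 0.04). The 2 entries of miR-128, another brain-enriched microRNA also abundant in these cells, behaved alike. miR-128-1-3p had 19249, 16964, 16840 and 20717 CPM in ASO libraries and 25777, 22043, 19312 and 18611 CPM in controls (slope −0.33), and miR-128-2-3p had a slope of −0.30. Reads of the 2 miR-128 copies may not be separable, so they are not independent.

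miR-378a-3p, encoded in the gene of the metabolic coactivator PPARGC1B, ranged over 5070 to 6820 CPM with ASO and 6244 to 9215 CPM in controls (slope −0.40). miR-4664-3p had the steepest fall of the opposite set, with a slope of −0.70 (SE 0.06), and miR-629-5p the shallowest, with −0.14 (SE 0.03). Between them were miR-671-3p (−0.45), miR-4421 (−0.38), miR-330-3p (−0.31) and miR-215-5p (−0.22). The median slope of the 14 with a slope was −0.35, and −0.44 without control library 1.

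Fitted across the whole table, the slope gave calls in both directions. This edgeR quasi-likelihood fit, with group as a term and the miR-31-5p deviation as a covariate, was chosen after the data had been seen. Of 744 other entries 81 had a positive slope past an adjusted p of 0.05 (10.9%), of which 78 were known microRNAs, and 55 had a negative one (7.39%), of which 49 were known. The split depended on scaling, with 74 positive and 70 negative by median-ratio size factors and 94 positive and 41 negative by library totals. It also rested on control library 1, without which 13 were positive and 3 negative, all 13 among the 81 and all 13 among the followers. Without control library 1 all 36 followers had a slope above 0, and all 14 fitted opposite microRNAs one below 0. Both sets were picked by r over these same libraries, so these signs were largely set by the choice. They cannot show that the slopes hold without control library 1. Leaving out control library 3 gave 32 negative slopes, and leaving out control library 4 gave 49 positive and 14 negative.

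The mean levels of followers and opposite microRNAs in the 2 groups were also compared. The choice by r within each group did not use the difference of the group means. It rested on the same levels, control library 1 among them, so this comparison is a description and no separate support. In log2 levels, 35 of 36 followers had a higher mean with ASO than in controls (median 0.42, range −0.01 to 0.82), and 13 of 15 opposite microRNAs a lower mean (median −0.19). Over all 481 entries 269 were higher with ASO and the median was 0.03. Without control library 1 the medians were 0.24 for 33 of 36 followers higher and −0.11 for 13 of 15 opposite microRNAs lower. In edgeR's group test 0 of 36 followers and 0 of 14 opposite microRNAs passed, 7 and 3 had an unadjusted p under 0.05, and DESeq2 called 1 follower, miR-3065-5p. These entries moved together across libraries, so the counts are not counts of independent microRNAs.

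One seed family had several followers. The seed AAAGUGC belongs to miR-17-5p, miR-20a-5p, miR-20b-5p, miR-93-5p and miR-106a-5p, which repress CDKN1A and E2F1 and come from 3 paralogous clusters. The first 4 of these 5 were followers. miR-17-5p held 2873, 3910, 3903 and 2697 CPM in ASO libraries 1 to 4 and 1413, 2254, 2756 and 3135 CPM in controls 1 to 4. miR-93-5p held 7280, 9743, 9467 and 6789 CPM in ASO libraries and 3483, 5256, 6556 and 7584 CPM in controls. Both were lower in ASO libraries 1 and 4 than in 2 and 3, and lowest of all in control library 1. The fifth, miR-106a-5p, had an r of 0.992 in controls and 0.550 with ASO, where library 1 (126 CPM) stood above library 3 (119 CPM). Reads of such close sequences may be shared between entries, so the family members are not independent.

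Other seed families were mixed. The 9 let-7 entries with the seed GAGGUAG ran from an r of 0.990 for let-7b-5p to −0.944 for let-7i-5p over the 8 libraries with group means removed. let-7i-5p held 17227, 14426, 14837 and 16740 CPM in ASO libraries 1 to 4 and 23234, 20069, 16900 and 16043 CPM in controls 1 to 4. In the miR-30 family, whose seed is GUAAACA, miR-30c-5p had an r of 0.999 and miR-30b-5p, just outside the limit for followers, 0.937, while miR-30e-5p had 0.083, miR-30a-5p −0.147 and miR-30d-5p −0.747. The 3 miR-181 entries ran from 0.928 to 0.993. The 28 followers matched to RefSeq held 25 different seeds, and the 12 matched opposite microRNAs 12.

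MicroRNAs from neighbouring genes could differ. miR-194-5p was a follower, with 145, 188, 179 and 135 CPM in ASO libraries 1 to 4 and 81.1, 111, 142 and 162 CPM in controls 1 to 4 (slope 0.64, SE 0.07). Its genes lie beside MIR215 on chromosome 1 and beside MIR192 on chromosome 11, and all 3 microRNAs are induced by p53. miR-215-5p was opposite, with 121, 115, 110 and 121 CPM in ASO libraries and 141, 127, 118 and 108 CPM in controls. miR-192-5p had 1280, 1064, 1097 and 1241 CPM in ASO libraries and 1731, 1501, 1229 and 1170 CPM in controls (slope −0.36, SE 0.06). Thus miR-194-5p was lowest in control library 1, where both of its neighbours were highest. The difference between these slopes was not tested.

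Slopes were also unlike at other loci. miR-30c-5p had a slope of 0.52, while miR-30e-5p beside its MIR30C1 copy had 0.02 (SE 0.08, adjusted p = 0.948 in edgeR's slope test). let-7b-5p had 0.26, while let-7a-5p, also made from a neighbouring gene on chromosome 22, had 0.04 (SE 0.03, adjusted p = 0.509 in edgeR's slope test). In the miR-17-92 cluster miR-17-5p had 0.75 and miR-20a-5p 0.84, while miR-92a-3p had 0.18. The neighbours miR-16-5p and miR-15a-5p had close slopes, 0.59 and 0.61. Mature miR-194-5p, miR-16-5p, miR-30c-5p and let-7a-5p each come from more than one gene, so an entry cannot be assigned to one locus.

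**Figure D5:**
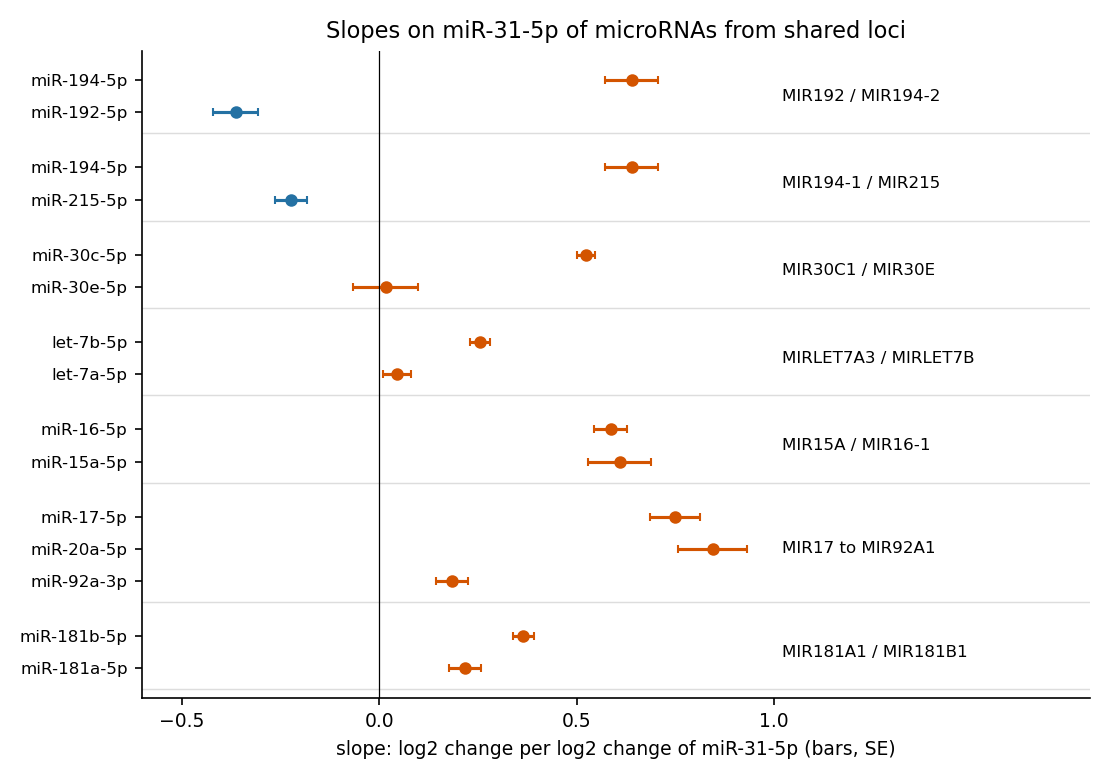
Slope of each microRNA on miR-31-5p (log2 change per log2 change of miR-31-5p, points, with SE as bars) for microRNAs whose genes lie within 10 kb of each other, grouped by locus. Positive slopes are orange and negative ones blue, and miR-194-5p (0.64) lies far to the right of miR-192-5p (−0.36) and miR-215-5p (−0.22).

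Arms of the same microRNA name could also differ. They were paired by name, and miR-16-5p comes from more than one gene, so a pair need not share a single hairpin. Of 6 names with both arms above 0 in all 8 libraries, 3 had an arm that was a follower or opposite. miR-16-5p was a follower (r 0.990 over the 8 libraries with group means removed), while miR-16-3p had an r of 0.009. miR-576-3p was opposite, while miR-576-5p had an r of 0.225. The arms of miR-199a were both followers, but their counts were nearly identical, so the entries may not separate them. miR-31-3p is not analysed here.

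Sequence composition was compared as a description. Followers matched to RefSeq ended in G in 46.4% of cases, opposite microRNAs in 8.33% and all 423 matched entries in 26.7%. They had a median GC content of 46.6%, against 52.3% for the opposite microRNAs and 47.8% for all, while miR-31-5p itself has 52.4% and ends in U. Lengths of at least 23 bases made up 35.7% of followers, 16.7% of opposite microRNAs and 20.8% of all. With 28 and 12 matched sequences these shares rest on few entries. Ends, GC content and lengths are those of RefSeq sequences matched by name. The deposited length equalled the RefSeq length for 228 of the 423 matched entries. For miR-31-5p it was 23, against 21 in RefSeq. The followers miR-17-5p, miR-20a-5p, miR-20b-5p and miR-93-5p are close sequences of one family. All of them have 23 bases and end in G, so they are not independent in these shares.

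Lists of microRNAs related to miR-31 were read with the slope fit, beside the 10.9% positive and 7.39% negative among all entries. A list of 7 held miR-31-3p and the mature microRNAs of its 9p21 neighbours, of which 2 were analysed here, miR-491-5p and miR-873-3p. miR-491-5p, from a gene 796 kb away, held 17.2, 27.2, 24.2 and 22.6 CPM in ASO libraries 1 to 4 and 15.2, 25.1, 28.9 and 30.1 CPM in controls 1 to 4. It rose with miR-31-5p (slope 0.60, SE 0.16, adjusted p = 0.0458 in edgeR's slope test), though its r was 0.420 with ASO against 0.985 in controls, and without control library 1 the call was lost (0.40, adjusted p = 0.628 in edgeR's slope test). miR-873-3p had a slope of 0.08 (adjusted p = 0.694 in edgeR's slope test).

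Of 11 metastasis-related microRNAs above 0 in all libraries, 1 rose and 4 fell with miR-31-5p, and the median r over the 8 libraries with group means removed was −0.514. miR-34a-5p, a p53-induced repressor of the cell cycle, rose (slope 0.44, adjusted p = 0.00638 in edgeR's slope test). The 4 that fell were miR-148a-3p (−0.65), miR-10b-5p (−0.42), which promotes invasion of breast cancer cells, miR-21-5p (−0.21), which represses PDCD4, and miR-146b-5p (−0.16), a feedback inhibitor of NF-kB signalling. miR-10b-5p held 23382, 20273, 21927 and 24315 CPM in ASO libraries 1 to 4 and 35925, 25673, 23319 and 22265 CPM in controls 1 to 4. No member of this list (0 of 11) was a follower or opposite at the limit of 0.9.

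Of 7 epithelial and skin microRNAs, 2 rose with miR-31-5p and 0 fell, with a median r of 0.870. They were miR-200a-3p (slope 0.30), which represses ZEB1 and ZEB2 and was a follower, and miR-125b-5p (0.51, adjusted p = 0.0113 in edgeR's slope test). miR-200b-3p, made from the same locus as miR-200a-3p, had a slope of −0.16 (adjusted p = 0.0607 in edgeR's slope test). Of the 8 NF-kB-induced microRNAs 2 rose, miR-125b-5p and miR-210-3p (slope 0.30, adjusted p = 0.0485 in edgeR's slope test), and 2 fell, miR-146b-5p and miR-21-5p. miR-155-5p and miR-146a-5p, the best-known of the list, had slopes of 0.11 and 0.24 and did not pass (adjusted p = 0.352 and 0.163 in edgeR's slope test). Without control library 1 the 9 list members called above had adjusted p-values of 0.170 to 0.628 in edgeR's slope test, so each of these calls was lost.

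The share of counts taken by abundant entries also varied between libraries. The 10 most abundant entries took 50.7, 48.6, 48.1 and 49.8% of counts in ASO libraries 1 to 4, and 53.4, 51.9, 50.5 and 49.7% in controls 1 to 4. This share was highest in control library 1, where miR-31-5p was lowest, and had an r of −0.904 with its log2 level over the 8 libraries with group means removed (−0.735 over ASO libraries, −0.985 over controls). Among ASO libraries it was highest in library 1 and miR-31-5p was lowest in library 4. Of these abundant entries, miR-7-5p had a slope of −0.45, miR-148a-3p −0.65 and miR-10a-5p −0.32, while the 3 miR-92a entries had slopes of 0.17 to 0.18. The miR-92a-3p entry matched the level of miR-92a-2-3p in every library. The miR-92a-1-3p entry was close to both, at 64449 against 60603 CPM in ASO library 1. The same reads may thus enter the share of the 10 repeatedly, and the 3 miR-92a slopes are not independent. The second principal component of within-group variation over known entries, which held 36.9% of it, had an r of 0.944 with miR-31-5p, against 0.314 for the first (49.9%). One known entry, miR-548av-5p, had a pooled SD of 3.73, against 0.80 for miR-199a-3p. Its weight in the first component was not tested. Total counts (8168828 to 11677123) had an r of 0.810 over ASO libraries and −0.130 over controls (0.058 over the 8 with group means removed), and the number of entries above 0 one of −0.147 and 0.196 (0.068). The mean length of counted entries had an r of 0.596 over ASO libraries and −0.904 over controls, and the share of predicted entries 0.647 and 0.423. Each entry has a fixed length, so this mean length reflects which entries were counted and is not a read length. The part of library makeup in the likeness values was not tested.

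Markers of the cell line and of other cell types were read in the same way. All 7 microRNAs commonly abundant in HEK293 cells were above 0 in every library, with a summed level of 166457 to 188384 CPM with ASO and 178768 to 228180 CPM in controls. Of 7 blood markers 3 were in the table, miR-486-5p alone was above 0 in all libraries (r −0.066), and miR-142-3p and miR-150-5p reached at most 0.397 and 0.695 CPM. Of the 6 markers of fibroblasts, smooth muscle and endothelium 5 were above 0 in all libraries and summed to 994 to 1052 CPM with ASO and 978 to 1076 CPM in controls. Of these, miR-199a-5p and miR-199a-3p were followers, at 4.37 CPM in control library 1 against 17.2 to 32.6 CPM in the other 7 libraries, while miR-143-3p had a slope of −0.24 and miR-145-5p one of 0.12. Most of the sum was miR-126-3p, at 819 to 944 CPM, with a slope of −0.10 (r 0.171 over ASO libraries, −0.986 over controls). The part of other cell types in these values was not tested. The 4 liver and muscle markers in the table summed to 31.5 to 46.0 CPM with ASO and 16.5 to 20.3 CPM in controls, and the 2 above 0 in all libraries, miR-122-5p and miR-1-3p, had slopes that did not pass the test. Their mean levels over the 8 libraries were 20.9 and 6.01 CPM. Between the groups DESeq2 called miR-122-5p higher with ASO (log2 fold change 1.28, adjusted p = 5.06e-06) and did not call miR-1-3p (0.17, adjusted p = 0.653). edgeR's group test called 0 of these 2. Of the neural markers in the table, miR-9-5p had a slope of −0.07 and miR-129-5p was opposite.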

How the data were processed

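Small RNA libraries were made from total RNA (Qiagen miRNeasy Advanced) using NEB's small RNA preparation, per the labels' protocols. bcl2fastq 2.20, Trimmomatic 0.30, edgeR 3.4.6 and the build GRCh38 were named, per the submitters' processing notes; for the aligner and counter, the sources used here give none. The authors deposited whole-number counts per entry and library, columns headed TPM that equal CPM (within 0.223 of counts scaled to the library total), and a length per entry. The counts were used. Libraries were grouped by title. Tests covered entries above 0 in at least 4 libraries whose mean count was 10 or more (539 known, 206 predicted), with TMM factors of 0.964 to 1.02, edgeR 4.0.16 quasi-likelihood tests, two-sided, and Benjamini-Hochberg adjustment; DESeq2 1.42.0 was an alternative. Levels for likeness were log2(CPM + 1).

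The members, limits and lists were chosen with earlier results of these data known. Named microRNAs were those with a mean count of at least 100 that followed (10) or opposed (10) most closely, neighbours in level, the most abundant, those past the threshold and list members; loci, seed families and arms were added after values were seen. Scripts were tested on simulated data. Same-numbered libraries did not deviate together, and replicate pairs differed by more than counting noise (chi-square over degrees of freedom 135 to 801). One count is 0.0856 to 0.122 CPM. RefSeq sequences were matched by microRNA name.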

Additional observations from a re-analysis of the deposited data

Results flagged for a closer look

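Of 102 sets of 4 libraries checked for 1 value far from the rest, 2 stood out, where chance alone flags about 1 in 20, or 5.1. miR-200c-3p was low in ASO library 1, at 89.3 CPM against 110 to 113 CPM in the other 3 ASO libraries, a gap of 0.876 of the group's range. The number of entries above 0 was high in the same library, at 1317 against 1140 to 1164, a gap of 0.864 of the range. miR-31-5p itself was not set apart in either group by this measure.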

How the results depend on the processing

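With n = 4 a group, single libraries weigh heavily. The log2 fold change of miR-31-5p ran from −0.036 (without control library 1) to 0.40 over libraries left out, never past the threshold, and its mean log2 difference from −0.042 to 0.49. Its SD of log2 level ran from 0.32 to 0.59. Entries past the group threshold (1 in the main test) numbered 0 with no filter, 5 with a mean count of at least 100, 4 among known entries, 23 in DESeq2 and 0 to 5 over libraries left out. The library number did not pair the libraries (r of same-numbered deviations −0.04, −0.87, 0.66 and −0.64); with it as a replicate block, 0 entries passed and miR-31-5p had 0.28. Followers numbered 64 and opposite microRNAs 34 at a limit of 0.8, and 31 to 61 and 17 to 29 over libraries left out, where 3 libraries remain in a group. Positive slopes numbered 13 to 88 and negative ones 3 to 55 over libraries left out, with 49 and 14 without control library 4 and 32 negative without control library 3. The r of miR-629-5p was −0.873 with library totals. The other 239 values of r computed for named microRNAs kept their sign and their side of 0.9 in size. These microRNAs were picked for an r past this limit over the same libraries, so this was largely set by the choice. Of the slopes 185 kept their call and 15 lost it. Without control library 1 the calls of let-7b-5p, miR-505-3p, miR-330-3p, miR-671-3p, miR-128-2-3p, miR-378a-3p, miR-4421, miR-215-5p and miR-629-5p were lost. Their adjusted p-values in edgeR's slope test were then 0.0535 to 0.233. The cause of these shifts was not tested.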
